A study of Mus musculus with 26 samples.

Results

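Within the bone marrow, the cells that had long been pooled as the common myeloid progenitor can be sorted into a population on the way to red cells and platelets and a population on the way to granulocytes and macrophages. The arrays of 1 such pair were set against each other here: pre-megakaryocyte-erythroid cells (PreMegE, 3 arrays) and pre-granulocyte-macrophage cells without a Gata1 reporter signal (PreGM GFP-, 3 arrays). The members are these 6 of 26 arrays, chosen by their titles. Every one of the 19938 genes named alone by a probe set was tested, which drew on 21789 of 35556 probe sets. The other 20 arrays hold 6 further sorted populations and entered the model for their share in the estimate of spread.

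All mice were Gata1-EGFP Tg/+, hemizygous for a transgene whose green fluorescent protein reports on Gata1, and were between 8 and 15 weeks old. Both populations were lineage-negative bone marrow cells with Kit on the surface and without Sca1, CD41 or the Fc gamma receptors II and III. PreMegE cells were taken as CD150-positive and CD105-negative, and their label names no reporter gate. PreGM GFP- cells were taken as negative for CD150, CD105 and the reporter. Since PreMegE was gated on CD150 and PreGM GFP- against it and against the Gata1 reporter, the differences in Slamf1, which encodes CD150, and in Gata1 follow the gates. The labels do not say that the replicate arrays came from separate mice or sorts, so every p-value measures the spread between arrays, which may be technical. As the RNA is that of sorted bulk cells, fewer cells of a type and less RNA per cell cannot be told apart in any value below.

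Blood progenitors hold low levels of the programmes of several lineages before they commit to 1 of them. GATA1, with its cofactor FOG1 and with KLF1, TAL1 and LDB1, drives erythroid and megakaryocyte genes, while PU.1, C/EBP alpha and IRF8 drive granulocyte and macrophage genes. GATA2 acts in stem cells, early erythroid and megakaryocyte progenitors and mast cells.

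Values are the authors' log2 signals, on which a difference of 1 is a doubling. A difference is PreMegE minus PreGM GFP-, given with its standard error (SE) and the limma p after Benjamini-Hochberg adjustment for the 19938 genes. Adjusted p under 0.05 made a call, and such a gene is said to have risen or fallen in PreMegE. The median of all values was 6.61. A group mean under it was not shown to exceed background, so such a gene gets a log2 difference and no fold. Of the called genes given with values in the comparison below, the PreGM GFP- mean was under it for Car1, Ces2g, Prkch, Aqp9, Cd55, Pf4, Mc2r, Scin, Slamf1, Klf1, Kel, Tfr2, Cavin2 and Tek. The PreMegE mean was under it for Ms4a6c, Emb, Dntt, Gria3, Atp8b4, F13a1, Ly86, Gpr65, Ms4a6b, Milr1, Ifi209, Il7r, Tfec, Id2, Cd52, H2-Aa, Cd74, Mcpt8, Csf1r, Ccr2, Cd69, Csf2rb and Il10ra. The medians of the 6 arrays lay between 6.42 and 6.68, and Pearson's r over genes was 0.957 to 0.981 among PreMegE arrays, 0.951 to 0.976 among PreGM GFP- arrays and 0.930 to 0.964 between the groups. The arrays with the widest residuals were PreGM GFP- array 2 (residual SD 0.316), PreGM GFP- array 1 (0.289) and PreMegE array 1 (0.285), against 0.206 to 0.216 in the other 3. Where arrays were weighted by precision, the weights of PreGM GFP- arrays 1, 2 and 3 were 0.383, 0.364 and 0.483. Those of PreMegE were 0.532, 1.65 and 1.27, so every PreGM GFP- array had a lower weight than every PreMegE array. The number of arrays limits the precision.

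The populations differed in 620 genes, which is 3.11% of those tested. In PreMegE 209 genes (1.05%) were higher and 411 (2.06%) lower. At least 2-fold differences were found for 113 higher (0.567%) and 242 lower genes (1.21%). The signals of the 3 arrays of each group did not overlap for 207 of the 209 and 405 of the 411, while over all genes 1524 (7.64%) lay higher in PreMegE without overlap and 1353 (6.79%) lower. The 15 largest rises and 15 largest falls below were taken from called genes without overlap. For them a lack of overlap was thus set by the choice. An unadjusted p under 0.05 was reached by 2749 genes (13.8%). The median difference of all genes was 0.06. With each array centred on its median, which shifts the median difference of all genes by -0.10, the counts were 147 higher and 539 lower, so the higher share of calls was 21.4% in place of 33.7%. When only the 6 arrays were fitted, 58 genes were called higher and 131 lower. Weighting each array by its precision gave 89 and 171. The lower count was 227 without PreGM GFP- array 1 and 267 without PreMegE array 1.

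**Figure D1:**
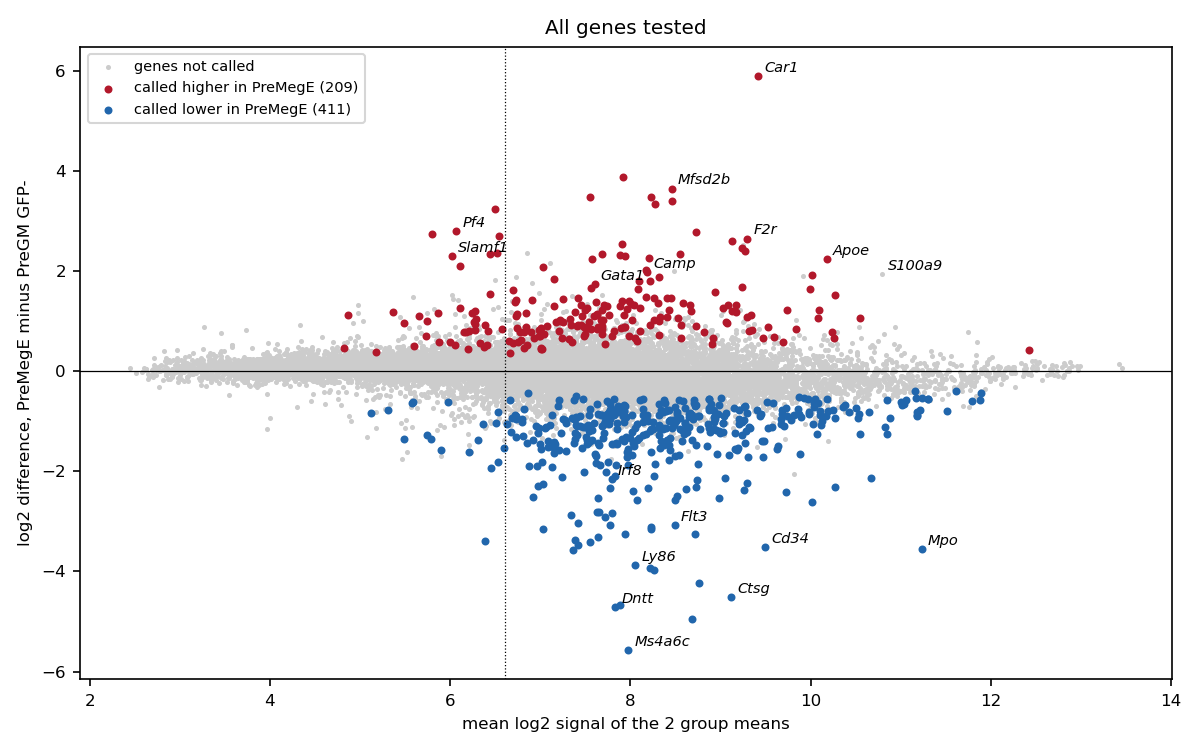
Each point is 1 of 19938 genes, with the mean of the group means of PreMegE and PreGM GFP- (log2 signal) on the horizontal axis and the log2 difference on the vertical axis; the dotted line marks the median of all values, 6.61. The 209 genes called higher are led by Car1 at 5.90 and the 411 called lower by Ms4a6c at -5.58, while S100a9 (1.93) stands high among genes that were not called.

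The antigens behind the gates were read first. Slamf1 read 7.43, 7.79 and 6.29 in the PreMegE arrays and 4.81, 4.89 and 4.91 in PreGM GFP- (difference 2.30, SE 0.25, adjusted p = 2.79e-06). The groups did not overlap, PreGM GFP- lay below the median signal, and PreMegE array 3 was the lowest of its group. Kit, the stem cell factor receptor gated as present on both, read 10.30, 10.79 and 10.44 against 10.16, 9.07 and 10.13 (0.72, SE 0.29, adjusted p = 0.229). Eng, which encodes CD105, ran from 7.19 to 7.88 in PreMegE and from 7.47 to 8.00 in PreGM GFP-, and these ranges overlapped. Itga2b, which encodes CD41, was gated out of both populations as a surface protein and its transcript still rose, with 8.39, 8.25 and 8.47 against 7.62, 7.45 and 7.43 (0.87, SE 0.17, adjusted p = 0.00292). The Fc gamma receptor genes Fcgr3 (-0.83, adjusted p = 0.0757) and Fcgr2b (-0.45, adjusted p = 0.334) were not called. The gate on Sca1 was not analysed here.

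Cd34, the sialomucin whose surface level splits the classical myeloid progenitors, read 7.04, 8.32 and 7.86 in PreMegE and 11.39, 11.07 and 11.28 in PreGM GFP-. It was 11.4-fold lower in PreMegE (-3.51, SE 0.28, adjusted p = 2.62e-08), with no overlap. Flt3, the receptor of early lymphoid and myeloid progenitors, read 6.89, 6.99 and 6.98 against 10.28, 9.70 and 10.09 and was 8.40-fold lower (-3.07, SE 0.27, adjusted p = 1.01e-07). The interleukin receptor gene Il7r fell by 1.58 on the log2 scale (SE 0.29, adjusted p = 0.00222), from PreGM GFP- arrays at 7.23, 6.91 and 5.91 to PreMegE arrays at 4.83, 5.14 and 5.34, which lie below the median signal; it was not called in the fit of the 6 arrays alone (adjusted p = 0.0818). The labelled gates name none of Cd34, Flt3 and Il7r. Of the 11 antigen genes measured, 2 rose (18.2%, against 1.05% of all genes) and 3 fell (27.3%, against 2.06%). The Slamf1 rise among them follows the CD150 gate.

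Among regulators of the erythroid and megakaryocyte lineages, 8 of 29 measured genes rose in PreMegE (27.6%, against 1.05% of all genes) and 1 fell; the median difference of the list was 0.28, beside 0.06 over all genes. Gata1 read 8.10, 8.67 and 8.63 in PreMegE and 6.36, 6.70 and 7.14 in PreGM GFP-, a 3.33-fold difference (SE 0.19 on the log2 scale, adjusted p = 1.93e-06). The PreGM GFP- arrays straddled the median signal and did not overlap with PreMegE. The Gata1 rise follows the gate against the reporter and is among the 8. Bcl11a, the repressor of fetal globin genes that also serves lymphoid progenitors, read 10.79, 10.83 and 10.79 against 9.19, 8.93 and 9.41 (1.63, SE 0.14, adjusted p = 6.05e-08). Its mean was also 10.49 in common lymphoid progenitors, 10.31 in lymphoid-primed multipotent progenitors and 10.04 in stem cells. In reporter-negative granulocyte-macrophage progenitors it was 9.07. Gata2 read 9.31, 9.33 and 9.14 against 7.95, 7.79 and 7.99 (1.35, SE 0.19, adjusted p = 6.91e-05). None of these 3 genes overlapped between the groups.

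Zfpm1, Gfi1b and Klf1 were also among the 8 that rose. Zfpm1, which encodes FOG1, read 8.24, 8.56 and 8.98 in PreMegE and 7.11, 7.72 and 7.21 in PreGM GFP- (1.25, SE 0.19, adjusted p = 0.000227), a call not made in the fit of the 6 arrays alone (0.0673). The repressor Gfi1b read 9.40, 9.14 and 9.27 against 7.81, 8.24 and 8.14 (1.21, SE 0.18, adjusted p = 0.000169). Klf1, the erythroid Krüppel-like factor, read 7.53, 7.47 and 7.28 against 6.16, 6.38 and 6.25 (1.16, SE 0.16, adjusted p = 6.44e-05), with PreGM GFP- below the median signal. Each of the 3 had every PreMegE array above every PreGM GFP- array. Ldb1 (1.06) and Tal1 (0.60), whose products act with GATA1, rose as well. Runx1, a factor of stem cells and megakaryocytes, fell by 0.78 on the log2 scale (SE 0.19, adjusted p = 0.0178), but the call was lost without PreMegE array 1 (adjusted p = 0.11) or PreGM GFP- array 1 (0.127), in the fit of the 6 arrays alone (0.373) or with weighted arrays (0.332). Nfe2 (0.35), Myb (0.36), Fli1 (-0.28), Meis1 (0.55) and Stat5a (0.54) were not called. The count of 8 risen regulators was the same with each array left out in turn. It was 6 in the fit of the 6 arrays alone and 7 with weighted arrays.

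Regulators of granulocytes and macrophages ran the other way in part: 5 of 28 measured genes fell (17.9%, against 2.06% of all genes) and 1 rose, with a list median of -0.08. Tfec, an activator of macrophage genes, read 6.24, 6.39 and 6.13 in PreMegE and 9.88, 7.72 and 9.57 in PreGM GFP- (-2.81, SE 0.46, adjusted p = 0.000591). Id2, an inhibitor of E proteins, read 5.75, 5.87 and 6.08 against 8.75, 8.60 and 7.12 (-2.26, SE 0.37, adjusted p = 0.000592). In both genes PreMegE lay below the median signal and PreGM GFP- spread widely, without overlap. Irf8, which directs monocytes and dendritic cells, read 6.74, 6.86 and 6.55 against 9.72, 8.37 and 8.52 and was 4.44-fold lower in PreMegE (SE 0.33 on the log2 scale, adjusted p = 0.000229).

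Cebpa, which encodes C/EBP alpha, the factor needed to form granulocyte-macrophage progenitors, read 7.70, 8.04 and 7.15 in PreMegE and 9.14, 8.80 and 9.36 in PreGM GFP- (-1.47, SE 0.20, adjusted p = 6.98e-05), with no overlap. Spi1, which encodes PU.1, read 6.59, 6.75 and 6.63 against 8.63, 7.58 and 8.07 (-1.43, SE 0.32, adjusted p = 0.0119). PreMegE sat at the median signal for Spi1, and with PreGM GFP- array 1 left out it was no longer called (-1.16, adjusted p = 0.107), nor was it with weighted arrays (0.102). Egr1, an immediate early gene that also acts in macrophages, was the list's only rise (0.70, SE 0.15, adjusted p = 0.0058), and was not called in the fit of the 6 arrays alone (0.12) or with weighted arrays (0.0577). Jun (1.03, adjusted p = 0.55), Zeb2 (0.67, adjusted p = 0.0546) and Bcl6 (adjusted p = 0.0656) were not called.

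**Figure D2:**
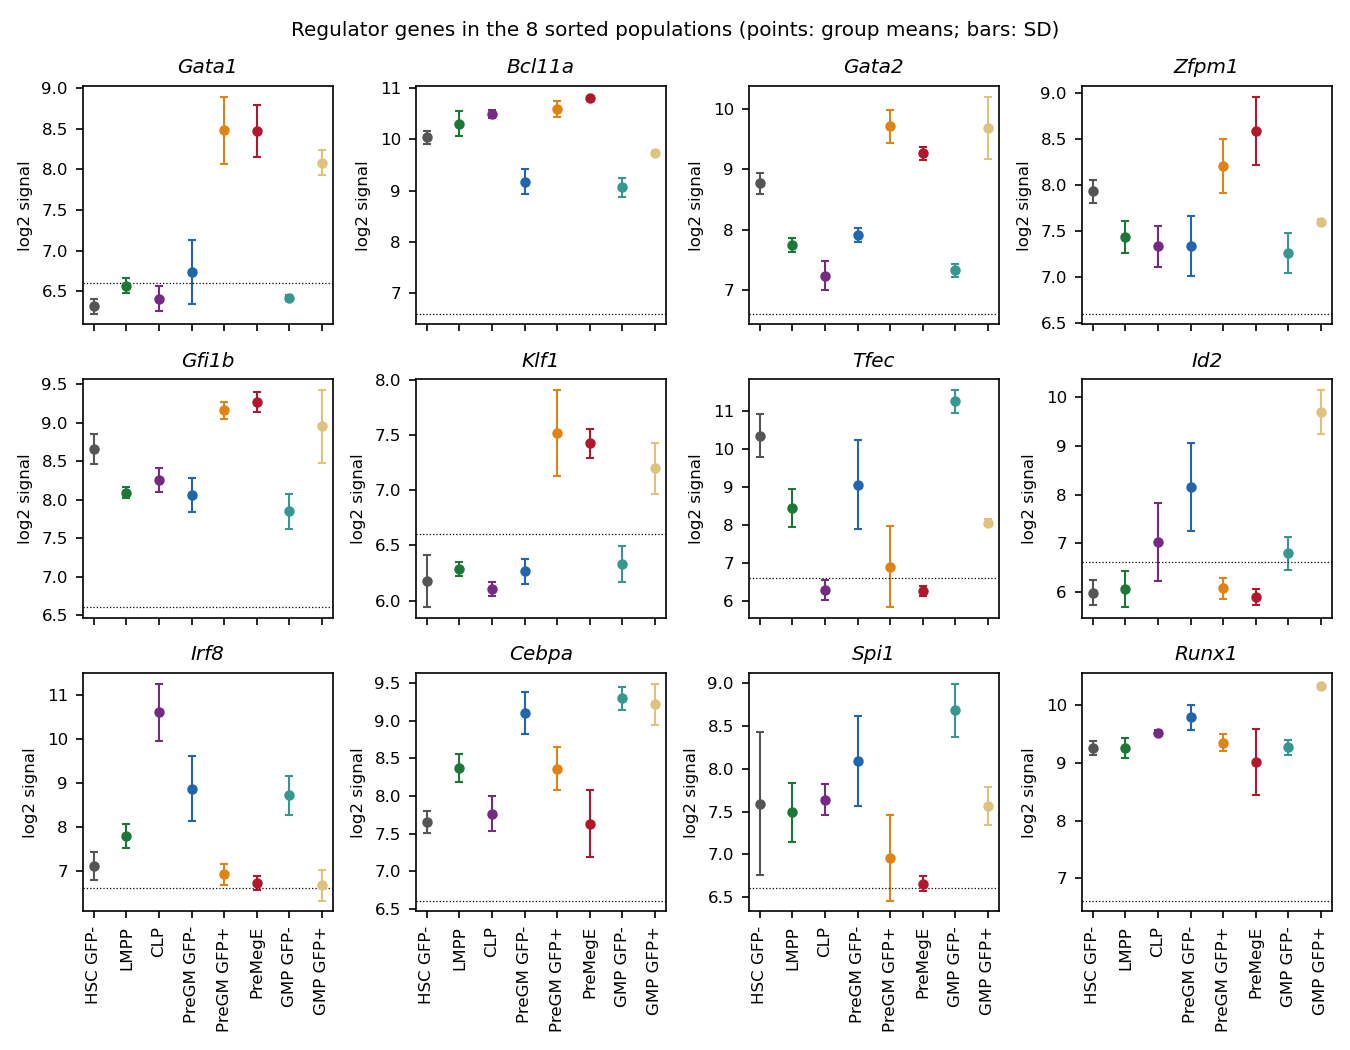
Points are group means and bars the SD of 3 or 4 arrays (log2 signal) for 12 regulator genes in the 8 sorted populations; dotted lines mark the median of all values, and vertical scales differ. Gata1, Gata2, Gfi1b and Klf1 are high in PreMegE, PreGM GFP+ and GMP GFP+, while Irf8 is highest in CLP (10.61) and low in PreMegE (6.72).

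To show the sequence in front of the regulator genes that moved most, the 250 bases before the first start that RefSeq's table lists (GRCm38.p6) are printed for the 3 most risen and the 3 most fallen; for Gata1 the listed start lies inside the gene's span. Capitals mark the letters AGATAA or TGATAA, which hold the core read by GATA factors, and GAGGAA, the core read by PU.1, searched on both strands. AGATAA and TGATAA share their last 5 letters.
Gata1, chrX:7967911-7968160, minus strand: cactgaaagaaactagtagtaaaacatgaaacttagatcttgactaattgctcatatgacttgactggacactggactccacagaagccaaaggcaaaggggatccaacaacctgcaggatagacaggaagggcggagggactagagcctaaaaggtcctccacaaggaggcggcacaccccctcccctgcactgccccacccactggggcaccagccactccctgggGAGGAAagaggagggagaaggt
Bcl11a, chr11:24080445-24080694, plus strand: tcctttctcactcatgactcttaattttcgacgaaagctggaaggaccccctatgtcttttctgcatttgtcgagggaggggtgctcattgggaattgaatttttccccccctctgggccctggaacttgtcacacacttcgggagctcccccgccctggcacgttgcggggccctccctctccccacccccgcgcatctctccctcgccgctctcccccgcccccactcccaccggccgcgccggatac
Gata2, chr6:88193641-88193890, plus strand: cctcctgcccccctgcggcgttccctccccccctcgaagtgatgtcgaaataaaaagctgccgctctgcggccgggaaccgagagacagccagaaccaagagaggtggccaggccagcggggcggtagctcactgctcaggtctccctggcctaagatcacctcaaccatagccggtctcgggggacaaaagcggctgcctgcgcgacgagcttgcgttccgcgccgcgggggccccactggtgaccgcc
Tfec, chr6:16898442-16898691, minus strand: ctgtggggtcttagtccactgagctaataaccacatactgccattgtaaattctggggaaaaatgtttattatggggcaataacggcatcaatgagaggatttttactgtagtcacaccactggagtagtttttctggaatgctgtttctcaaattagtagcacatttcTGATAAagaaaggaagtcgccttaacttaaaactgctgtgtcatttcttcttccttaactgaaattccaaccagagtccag
Id2, chr12:25096093-25096342, minus strand: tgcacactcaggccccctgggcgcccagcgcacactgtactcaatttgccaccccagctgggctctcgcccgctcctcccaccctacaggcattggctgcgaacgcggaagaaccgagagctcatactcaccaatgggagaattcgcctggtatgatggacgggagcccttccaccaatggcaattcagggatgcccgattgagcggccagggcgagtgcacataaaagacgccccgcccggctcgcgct
Irf8, chr8:120736108-120736357, plus strand: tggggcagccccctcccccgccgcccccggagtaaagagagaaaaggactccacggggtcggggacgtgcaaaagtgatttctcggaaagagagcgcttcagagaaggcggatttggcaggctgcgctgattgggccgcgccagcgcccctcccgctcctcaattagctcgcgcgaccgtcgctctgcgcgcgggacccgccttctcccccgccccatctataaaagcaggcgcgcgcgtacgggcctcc
The Gata1 window held 1 GAGGAA in the direction of the gene, 22 bases before the start, and the Tfec window 1 TGATAA, 81 bases before it. The other 4 windows held none of these letters. Over 27025 RefSeq promoters, AGATAA or TGATAA was found in 17.0% and GAGGAA in 23.1%. Among genes called higher in PreMegE with a listed promoter (162) the counts were 27 (16.7%) and 36 (22.2%), and among genes called lower (333) they were 40 (12%) and 94 (28.2%). A match is a description of letters, and its absence says only that they are not in this window.

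The 3 largest rises, Car1, Ces2g and Mfsd2b, are in the erythroid list. Of its 35 measured genes 16 rose (45.7%, against 1.05% of all genes) and 0 fell, by 0.45 to 5.90, with a list median of 0.55. This list and the others were drawn up with earlier results of these data known, so their counts are not independent evidence. Car1, the carbonic anhydrase typical of young erythroid cells, read 12.16, 12.41 and 12.53 in PreMegE and 5.72, 7.20 and 6.50 in PreGM GFP- (5.90, SE 0.33, adjusted p = 5.81e-11). The PreGM GFP- mean of 6.47 lay below the median signal and no arrays overlapped. Ces2g, a carboxylesterase, read 9.61, 9.91 and 10.04 against 5.84, 6.25 and 5.88 (3.87, SE 0.24, adjusted p = 2.68e-10). Mfsd2b, the transporter that exports sphingosine phosphate from red cells and platelets, read 9.84, 10.60 and 10.39 against 6.49, 6.80 and 6.63, a 12.5-fold rise (SE 0.15 on the log2 scale, adjusted p = 5.29e-13). The Mfsd2b mean in PreGM GFP-, 6.64, lay just above the median signal, with array 1 below it.

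Membrane proteins of the red cell followed. Slc14a1, the urea transporter that carries the Kidd blood group, read 10.04, 10.61 and 10.64 in PreMegE and 8.52, 6.75 and 8.24 in PreGM GFP- (2.59, SE 0.38, adjusted p = 0.000147). Kel, the Kell blood group protease, read 7.10, 8.21 and 7.80 against 5.25, 5.51 and 5.27 (2.36, SE 0.31, adjusted p = 3.42e-05). Aqp1, a water channel, read 9.44, 9.18 and 9.38 against 6.82, 7.12 and 7.29 and was 4.78-fold higher (SE 0.17 on the log2 scale, adjusted p = 8.57e-09). None of these 3 overlapped. The other called genes were Ermap, Vamp5, Icam4, Car2, Rhag, Blvrb, Hemgn, Slc38a5, Samd14 and Ank1. Epor, the erythropoietin receptor, differed by 0.47 and was not called (adjusted p = 0.0546), its arrays at 7.41, 7.31 and 7.12 against 6.43, 6.98 and 7.01. The erythroid count was 10 when only the 6 arrays were fitted and 10 with arrays weighted by precision.

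Of 23 genes of heme synthesis and iron uptake 2 rose (8.70%, against 1.05% of all genes), 1 fell (4.35%, against 2.06%) and the list median was 0.21. None of the 3 calls was made in the fit of the 6 arrays alone, and neither rise with weighted arrays. Tfr2, the second transferrin receptor, rose by 0.78 (SE 0.14, adjusted p = 0.00207) from a PreGM GFP- mean below the median signal (0.0982 with the 6 arrays alone, 0.0574 with weights). Slc11a2, the iron transporter of endosomes, rose by 0.99 (SE 0.21, adjusted p = 0.00917), a call lost without PreMegE array 3 (0.68, adjusted p = 0.069), which at 8.27 stood above 7.32 and 7.42 (0.153 with the 6 arrays alone, 0.126 with weights). Alas1, the housekeeping form of the first enzyme of heme synthesis, fell from 8.50, 7.49 and 8.80 in PreGM GFP- to 6.50, 7.26 and 6.89 (-1.38, SE 0.25, adjusted p = 0.00152, and 0.145 with the 6 arrays alone). The haemoglobin probe sets name several genes and were outside the gene test. The alpha-globin sets averaged 10.2 in PreMegE and 8.16 to 8.22 in PreGM GFP-, with SDs of 1.20 to 1.37, and neither was called (adjusted p = 0.213 and 0.230). PreMegE array 3 was the highest for alpha and beta globin.

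Platelet and megakaryocyte genes rose in fewer numbers: 6 of 29 measured (20.7%, against 1.05% of all genes), 0 fell, and the list median was 0.24. F2r, the thrombin receptor, read 10.67, 10.85 and 10.34 in PreMegE and 7.92, 8.13 and 7.86 in PreGM GFP-, a 6.26-fold rise with no overlap (SE 0.16 on the log2 scale, adjusted p = 1.61e-10). Pf4, a chemokine of platelet granules, read 5.66, 8.36 and 8.37 against 4.50, 4.66 and 4.83 (2.80, SE 0.50, adjusted p = 0.00149). PreMegE array 1 stood apart for Pf4, below the median signal with all of PreGM GFP-, and the gene was not called in the fit of the 6 arrays alone (adjusted p = 0.12). Gp5, a subunit of the platelet von Willebrand factor receptor, read 9.48, 8.58 and 9.07 against 6.09, 6.67 and 7.41 and was 4.99-fold higher (SE 0.29 on the log2 scale, adjusted p = 1.63e-05).

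Cavin2, a caveolar coat protein, rose by 1.26 (SE 0.19, adjusted p = 0.000219, and 0.0738 with the 6 arrays alone) and P2ry1, the ADP receptor, by 0.91 (SE 0.13, adjusted p = 7.37e-05). The mean deviation of the 29 genes from their average over the 8 populations was 0.20, 0.45 and 0.43 in the PreMegE arrays and -0.32, -0.10 and -0.08 in PreGM GFP-. PreMegE array 1 was thus the lowest of its group for this list and the groups did not overlap.

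The other leading rises belonged to no lineage list. Atp1b2, a subunit of the sodium pump, read 10.28, 9.82 and 10.38 in PreMegE and 6.47, 6.91 and 6.91 in PreGM GFP-, a 10.5-fold rise (SE 0.20 on the log2 scale, adjusted p = 1.81e-10). Aqp9, a channel for water and glycerol, read 9.81, 10.01 and 10.01 against 6.74, 6.74 and 6.34 (3.34, SE 0.28, adjusted p = 4.23e-08). Cd55, which shields cells from complement, read 7.85, 8.47 and 8.02 against 4.91, 4.58 and 5.14 (3.23, SE 0.34, adjusted p = 1.61e-06). All 3 were separate between the groups, as the choice of leading genes required. The PreGM GFP- means of Aqp9 and Cd55 were below the median signal. Mc2r, the corticotropin receptor, rose by 2.74 (adjusted p = 6.93e-10) from arrays at 4.23 to 4.54 to arrays at 6.87 to 7.59. Scin, an actin-severing protein, rose by 2.70 (adjusted p = 7.62e-07), Gstm5, a glutathione transferase, by 2.78 (adjusted p = 0.00292), Trib2, a pseudokinase, by 2.54 (adjusted p = 7.13e-07) and Ugcg, the glucosylceramide synthase, by 2.46 (adjusted p = 5.38e-06).

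Prkch, a protein kinase C, had the fourth largest rise and the least even one. It read 10.63, 9.30 and 7.94 in PreMegE and 4.55, 5.13 and 7.77 in PreGM GFP- (3.47, SE 0.91, adjusted p = 0.0355), so that the nearest arrays of the groups almost met. The call was lost without PreMegE array 1 (adjusted p = 0.189) or 2 (0.0936), and likewise when PreGM GFP- array 1 (0.217) or 2 (0.0928) was absent. It was also lost in the fit of the 6 arrays alone (0.158), with weighted arrays (0.323) and with the replicate number as a block (0.055). Of the 15 largest rises 8 had a PreGM GFP- mean below the median signal.

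**Figure D3:**
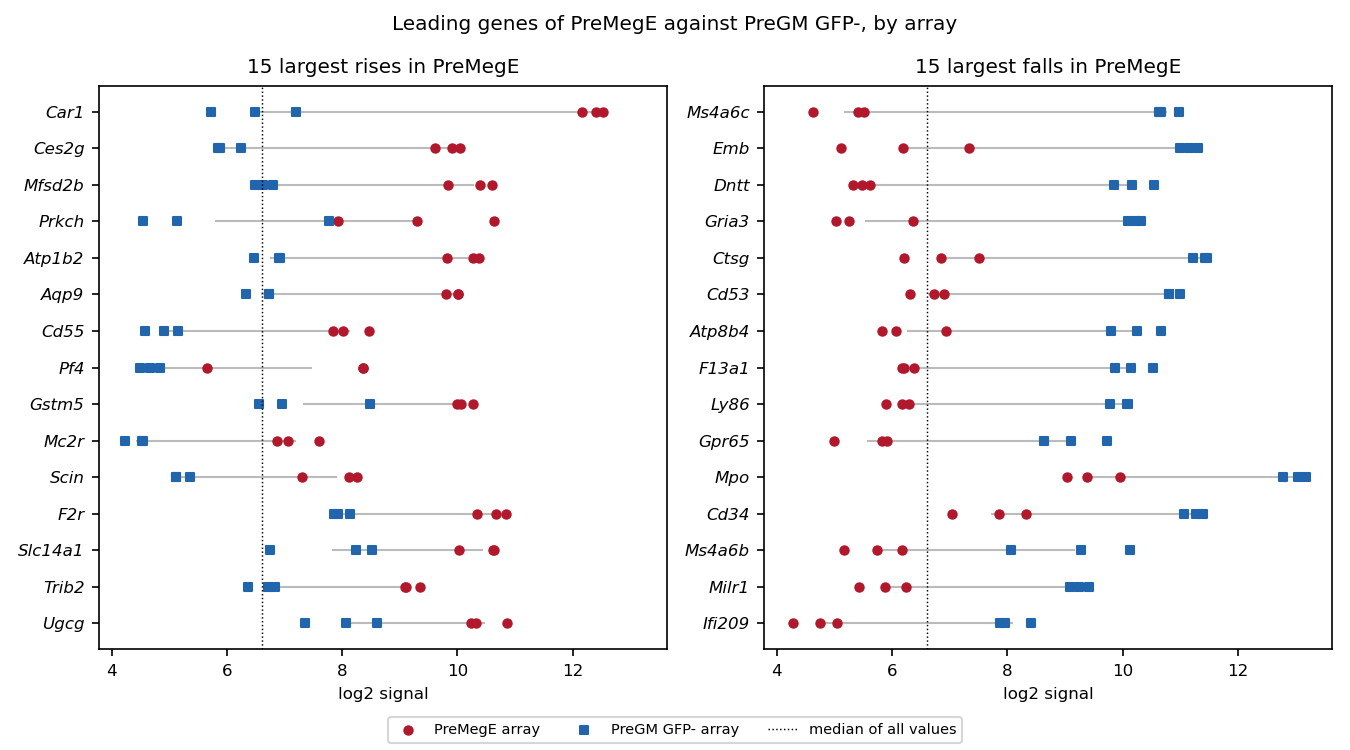
For the 15 largest rises (left) and 15 largest falls (right) each red circle is a PreMegE array and each blue square a PreGM GFP- array (log2 signal), grey lines join the group means and the dotted line is the median of all values. The genes were chosen for groups that do not overlap; in Prkch 7.94 and 7.77 are neighbours, and Pf4 in PreMegE array 1 (5.66) lies far from 8.36 and 8.37.

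The 2 largest falls, Ms4a6c and Emb, are in the monocyte and macrophage list. Of its 31 measured genes 14 fell (45.2%, against 2.06% of all genes) and 0 rose, by 0.96 to 5.58 on the log2 scale, with a list median of -1.07. Ms4a6c, a membrane-spanning protein of myeloid cells, read 5.40, 4.63 and 5.52 in PreMegE and 10.67, 10.99 and 10.63 in PreGM GFP- (-5.58, SE 0.61, adjusted p = 2.84e-06). Emb, the chaperone of monocarboxylate transporters, read 7.34, 5.11 and 6.19 against 11.16, 11.31 and 11.00 (-4.94, SE 0.48, adjusted p = 4.24e-07). In both the PreMegE mean was below the median signal. Cd53, a leukocyte tetraspanin, read 6.31, 6.73 and 6.91 against 10.81, 11.00 and 10.81 and was 18.7-fold lower in PreMegE (SE 0.36 on the log2 scale, adjusted p = 6.19e-08). The Cd53 mean in PreMegE, 6.65, lay just above the median signal, with array 1 below it. In lymphoid-primed multipotent progenitors Ms4a6c, Emb and Cd53 averaged 8.21, 11.13 and 10.87. In common lymphoid progenitors they averaged 9.85, 10.57 and 11.42.

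F13a1, the clotting factor subunit made by monocytes, read 6.20, 6.18 and 6.38 in PreMegE and 9.87, 10.54 and 10.15 in PreGM GFP- (-3.93, SE 0.41, adjusted p = 1.41e-06). Ly86, a partner of a toll-like receptor relative, read 6.30, 5.89 and 6.17 against 9.79, 10.10 and 10.07 (-3.87, SE 0.34, adjusted p = 1.01e-07). Ms4a6b fell by 3.47 on the log2 scale (SE 0.56, adjusted p = 0.000452). Ccr2, the chemokine receptor of inflammatory monocytes, fell by 3.15 (SE 0.49, adjusted p = 0.000322). For these 4 genes all PreMegE arrays were below the median signal and all PreGM GFP- arrays above it. The other called genes of the list were Ctss, Mpeg1, Clec12a, Tyrobp, Ncf1, Csf1r and Ncf4. Its mean deviation was -0.89, -1.07 and -1.04 in the PreMegE arrays and 0.71, 0.65 and 0.65 in PreGM GFP-, and the count of falls was 13 to 15 when single arrays were left out.

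Of 30 measured genes of neutrophil granules 8 fell (26.7%, against 2.06% of all genes), 2 rose (6.67%, against 1.05%), and the median was 0.08. In the whole list of 30, 8 genes lay higher and 11 lower without overlap, where 7.64% and 6.79% of all genes did. For description, 5 genes of primary granules and early promyelocytes and 12 of later neutrophils were picked after their values were seen, and the other 13 genes of the list are in neither group. The 5 all fell, where 2.06% of all genes did, with a median of -2.57. Ctsg, the granule protease cathepsin G, read 6.21, 6.84 and 7.51 in PreMegE and 11.43, 11.22 and 11.46 in PreGM GFP-, 22.9-fold lower (SE 0.39 on the log2 scale, adjusted p = 6.45e-08). Mpo, myeloperoxidase, read 9.04, 9.38 and 9.95 against 13.04, 12.79 and 13.19, 11.7-fold lower (SE 0.25 on the log2 scale, adjusted p = 4.23e-09). Mpo thus stayed well above the median signal in PreMegE. Ms4a3 (-2.57, adjusted p = 4.14e-06), the protease gene Prtn3 (-2.40, adjusted p = 1.44e-05) and Elane, neutrophil elastase (-2.10, adjusted p = 2.91e-06), fell without overlap, as did Igsf6 (-2.35, adjusted p = 0.00023). Hp, which encodes haptoglobin, fell from 9.17, 7.91 and 8.74 to 7.23, 6.69 and 6.25, and Serpinb1a, a protease inhibitor, from 9.73, 9.03 and 9.36 to 7.78, 7.69 and 7.65.

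Of the 12 genes of later neutrophils 2 were called, both higher (against 1.05% of all genes), and the median was 1.35. Without overlap 8 of the 12 were higher, where 7.64% of all genes were. As the genes were picked on these values, the counts are a description. Camp, an antimicrobial peptide of secondary granules, read 9.95, 8.89 and 8.67 in PreMegE and 6.30, 7.65 and 7.62 in PreGM GFP- (1.98, SE 0.48, adjusted p = 0.022). Chil3, a chitinase-like protein, read 9.10, 9.31 and 8.94 against 6.52, 8.05 and 7.40 (1.80, SE 0.47, adjusted p = 0.0337). Neither call was made without PreMegE array 1 or PreGM GFP- array 1, where the count of risen granule genes was 0. The count was also 0 with weighted arrays. It was 1 in the fit of the 6 arrays alone and without PreMegE array 2 or 3. S100a8 read 11.54, 10.63 and 10.42 against 8.12, 9.85 and 8.96 (1.89, adjusted p = 0.116) and S100a9 11.90, 11.69 and 11.69 against 9.59, 9.90 and 9.98 (1.93, adjusted p = 0.3). The 2 calgranulin genes were separate between the groups and still uncalled, as was Ngp (2.51, adjusted p = 0.108). For S100a9 the SE was 0.84, since all 8 groups share 1 estimate of spread. Its SD was 0.12 in PreMegE and 0.21 in PreGM GFP-, and up to 2.06 elsewhere, in reporter-positive PreGM cells. Ltf (1.20), Lcn2 (1.28) and Ly6g (1.43) were not called. The 12 genes had mean deviations of 1.70, 0.82 and 1.03 in PreMegE and -0.47, 0.17 and 0.02 in PreGM GFP-, with PreMegE array 1 the highest. Whether late neutrophils or their RNA were in the sorted cells was not tested.

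Genes of early lymphoid cells were lower in PreMegE where they were called. Of 29 measured genes of lymphoid priming 6 fell (20.7%, against 2.06% of all genes) and 0 rose, with a median of -0.42. Dntt, the DNA polymerase that adds bases to antigen receptor joints, read 5.48, 5.61 and 5.33 in PreMegE and 10.54, 10.16 and 9.85 in PreGM GFP- (-4.71, SE 0.21, adjusted p = 1.3e-12). Satb1, a chromatin organiser of lymphoid cells, read 8.14, 7.30 and 7.69 against 10.39, 9.90 and 10.45 and was 5.82-fold lower (SE 0.22 on the log2 scale, adjusted p = 6.45e-08). Cd52, a surface glycoprotein of lymphocytes, read 5.93, 5.71 and 7.50 against 10.10, 8.75 and 8.76 (-2.83, SE 0.46, adjusted p = 0.000465). None of the 3 overlapped, though PreMegE array 3 was high for Cd52, which was not called in the fit of the 6 arrays alone (adjusted p = 0.0587). Lsp1, an actin-binding leukocyte protein, fell by 2.17 on the log2 scale (SE 0.32, adjusted p = 0.000147); Flt3 and Il7r complete the 6. Among probe sets naming several genes, 2 that both name the gamma T cell receptor variable genes Trgv2, Trgv4 and Trgv6 were lower, with differences of -3.91 (adjusted p = 1.28e-05) and -3.63 (adjusted p = 5.18e-07). A set naming Trgv4 and Trgv6 differed by -0.20 and was not called (adjusted p = 0.67). Markers of mature cells were not called: 0 of 23 T and NK cell and 0 of 18 B and plasma cell genes, against 3.11% of all genes. With lists this short, 0 calls is near that share. Both group means lay below the median signal for 15 of the 23 and 12 of the 18.

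Dntt stood at 5.64 in reporter-negative granulocyte-macrophage progenitors, at 11.44 in lymphoid-primed multipotent progenitors (LMPP) and at 11.87 in common lymphoid progenitors (CLP), so that its PreGM GFP- mean of 10.18 lay below both. Of the antigen presentation list 4 of 19 genes fell (21.1%, against 2.06% of all genes) and 0 rose: Flt3, H2-Aa, Cd74 and H2-Ab1. H2-Aa, a class II chain, read 6.05, 5.97 and 6.64 in PreMegE and 9.39, 8.97 and 8.77 in PreGM GFP- (-2.82, SE 0.48, adjusted p = 0.00084). The calls of Cd74, the class II chaperone, and of H2-Ab1 were lost without any 1 of 5 arrays (PreMegE 1, 2 or 3, PreGM GFP- 1 or 2), where adjusted p ran from 0.0513 to 0.264, and in the fit of the 6 arrays alone (0.189 and 0.302) or with weighted arrays (0.0805 and 0.136).

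Other leading falls were spread over functions. Gria3, a glutamate receptor subunit, read 5.26, 6.37 and 5.03 in PreMegE and 10.24, 10.09 and 10.33 in PreGM GFP- (-4.67, SE 0.35, adjusted p = 1.11e-08). Atp8b4, a phospholipid flippase, read 5.82, 6.94 and 6.07 against 10.26, 9.79 and 10.67 (-3.97, SE 0.31, adjusted p = 2.06e-08). Gpr65, a proton-sensing receptor, read 4.99, 5.91 and 5.82 against 9.74, 8.63 and 9.10 (-3.58, SE 0.47, adjusted p = 3.11e-05). These 3 PreMegE means were below the median signal. The lack of overlap between arrays was a condition of the choice of leading genes. Milr1, an inhibitory receptor of mast cells (-3.41, adjusted p = 1.91e-05), and Ifi209, an interferon-inducible gene (-3.40, adjusted p = 0.000148), fell too. Of the 15 largest falls 11 had a PreMegE mean below the median signal.

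Receptors for cytokines and growth factors were mostly lower where they were called. Of 37 measured 9 fell (24.3%, against 2.06% of all genes) and 2 rose, with a median of -0.25. Il6st, the shared signalling chain gp130, read 6.94, 7.25 and 7.45 in PreMegE and 9.81, 8.38 and 9.75 in PreGM GFP- and was 4.28-fold lower (SE 0.32 on the log2 scale, adjusted p = 0.000277). Csf3r, the G-CSF receptor, read 6.73, 7.05 and 6.96 against 8.54, 8.13 and 8.51 (-1.48, SE 0.15, adjusted p = 1.07e-06). Csf1r, the M-CSF receptor, read 6.59, 6.37 and 6.36 against 8.52, 7.13 and 8.05 (-1.46, SE 0.29, adjusted p = 0.00361, and 0.0982 with the 6 arrays alone). All 3 were separate between the groups. Il4ra fell by 1.14 (adjusted p = 0.000277) on the log2 scale. The calls of Csf2rb, the shared beta chain (-1.41), Ifnar2 (-0.89) and Il10ra (-0.82) failed when PreGM GFP- array 1 was absent (adjusted p = 0.271, 0.111 and 0.117); Csf2rb was also lost without PreGM GFP- array 3 or any 1 PreMegE array (0.0721 to 0.121), Ifnar2 without PreMegE array 1 (0.0797) and Il10ra without PreMegE array 2 or 3 or PreGM GFP- array 3 (0.0548 to 0.088). None of these 3 was called in the fit of the 6 arrays alone (0.242, 0.0929 and 0.0702) or with weighted arrays (0.142, 0.135 and 0.0929).

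Tgfbr3, the TGF-beta coreceptor betaglycan, rose from 6.58, 6.98 and 6.62 to 8.29, 8.20 and 8.70 (1.67, SE 0.15, adjusted p = 1.89e-07). Ifngr1 rose by 1.22 (adjusted p = 0.0128), a call lost without PreMegE array 2 (0.0515) or PreGM GFP- array 2 (0.0524), which at 8.52 lay below 9.94 and 10.00, and in the fit of the 6 arrays alone (0.246). The alpha chains Csf2ra and Il3ra differed by 0.14 and 0.07 and were not called (adjusted p = 0.801 and 0.855); the sign of Il3ra turned with median-centred arrays (-0.04) and without PreGM GFP- array 1 (-0.02). Among 40 genes of chemokine receptors and adhesion 7 fell (17.5%, against 2.06% of all genes) and 2 rose (5.0%, against 1.05%). Cxcr4, the marrow homing receptor, read 9.79, 10.37 and 10.48 in PreMegE and 11.72, 11.45 and 11.24 in PreGM GFP- (-1.26, SE 0.18, adjusted p = 8.39e-05) with no overlap, and Pecam1 (-1.27, adjusted p = 0.00676, and 0.106 with weighted arrays) and Cd69 (-1.94, adjusted p = 0.00271) fell.

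**Figure D4:**
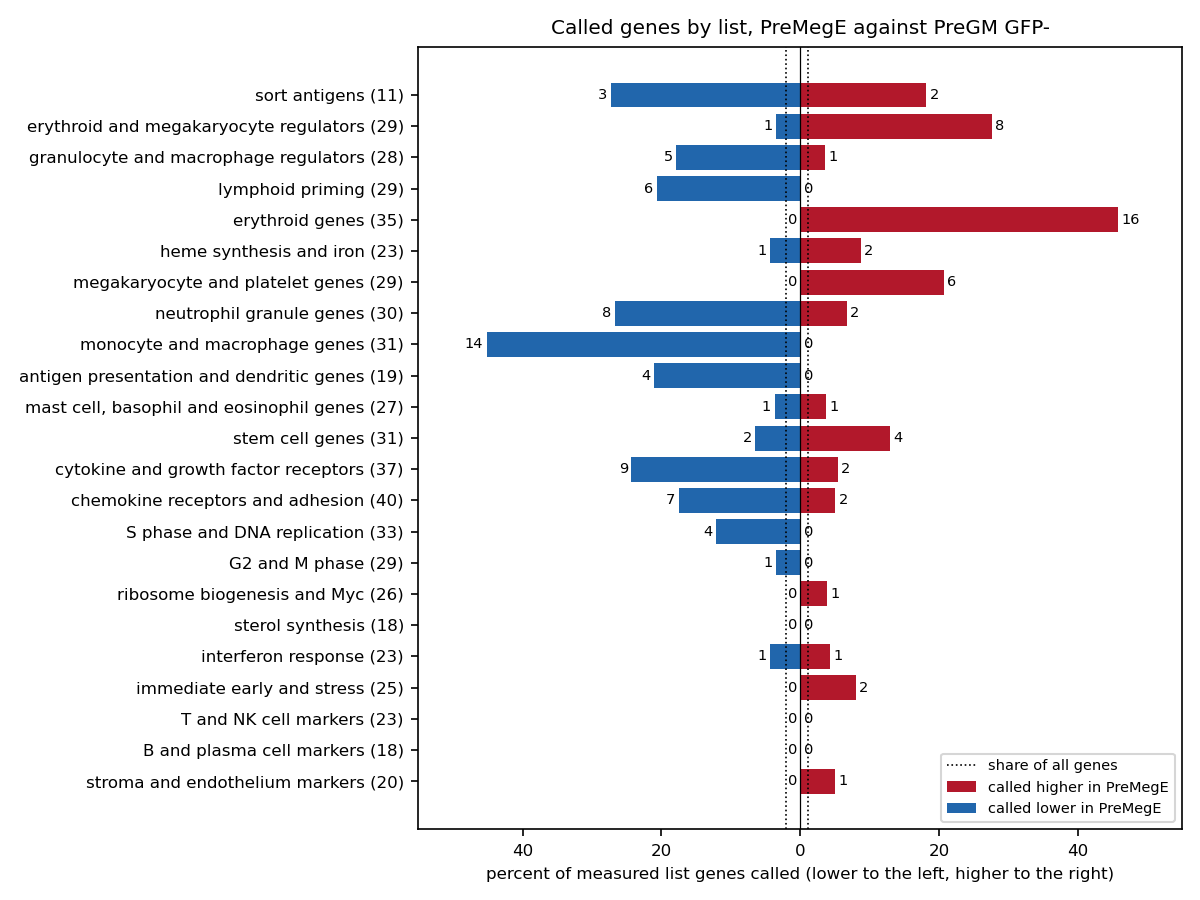
Bars give the percent of measured genes of each list (number in brackets) called lower (left, blue) or higher (right, red) in PreMegE, with the count of genes at the bar's end; dotted lines mark the shares over all genes, 2.06% lower and 1.05% higher. Erythroid genes reach 45.7% higher and monocyte and macrophage genes 45.2% lower, and the T and NK, B and plasma cell and sterol lists have 0 calls.

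Of 31 stem cell genes 4 rose (12.9%, against 1.05% of all genes) and 2 fell (6.45%, against 2.06%), with a median of 0.03. Among the 4, the Slamf1 rise follows the CD150 gate. Beside Slamf1, Txnip, an inhibitor of thioredoxin, rose from 9.84, 8.73 and 9.96 to 10.43, 11.38 and 11.29 (1.52, SE 0.29, adjusted p = 0.00292, and 0.136 with the 6 arrays alone). Tek, the angiopoietin receptor, rose by 1.20 (adjusted p = 0.00922), a call lost without PreMegE array 2 (0.89, adjusted p = 0.0793). Mycn rose by 0.67 (adjusted p = 0.0177), lost without PreMegE array 2 (0.0803) or PreGM GFP- array 1 (0.0904). Beside Cd34, Hlf, a factor of stem cell self-renewal, fell from 9.13, 8.47 and 8.86 to 7.90, 8.11 and 8.10 (-0.78, SE 0.17, adjusted p = 0.0108), lost without PreMegE array 1 (0.0591) or PreGM GFP- array 1 (0.0961). Tek, Mycn and Hlf were not called in the fit of the 6 arrays alone (0.21, 0.0902 and 0.143), nor were Mycn and Hlf with weighted arrays (0.0688 and 0.106) or Mycn with median-centred arrays (0.0842).

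Of 33 genes of S phase and DNA replication 4 fell (12.1%, against 2.06% of all genes), by 0.66 to 0.96 on the log2 scale: Rfc3, Mcm5, Fen1 and Mcm10. The list median was -0.48, 1 of 33 differences was positive, and 15 of 33 genes lay lower without overlap, where 6.79% of all genes did. Without PreMegE array 2, or without PreGM GFP- array 1, 0 of the 33 were called, and without PreMegE array 1 the count was 2. None of Mcm5, Fen1 and Mcm10 was called in the fit of the 6 arrays alone (0.189, 0.205 and 0.231), and none of the 4 with weighted arrays (0.0545 to 0.2). The list's mean deviation was -0.39, -0.30 and -0.12 in PreMegE and 0.45, 0.02 and 0.19 in PreGM GFP-. Of 29 genes of G2 and M phase only Cdk1 fell (3.45%, against 2.06% of all genes; -0.77, adjusted p = 0.0425). This call was lost without PreMegE array 1 (0.195) or 2 (0.179) or PreGM GFP- array 1 (0.236) or 3 (0.0601), in the fit of the 6 arrays alone (0.259) and with weighted arrays (0.301). The list spread from -0.78 in PreMegE array 1 to 0.18 in array 3 and from -0.32 in PreGM GFP- array 2 to 0.46 in array 1, so the groups overlapped. The part of array 1 of either group in these values was not tested further than by leaving it out.

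Mast cell, basophil and eosinophil genes had 1 of 27 called higher (3.70%, against 1.05% of all genes) and 1 lower (3.70%, against 2.06%), and 21 of 27 lay below the median signal in both groups. Mcpt8, a basophil protease, read 6.12, 6.01 and 5.58 in PreMegE and 9.36, 8.68 and 8.31 in PreGM GFP- (-2.88, SE 0.38, adjusted p = 4.49e-05). Slc18a2, the vesicular monoamine transporter of mast cells and platelets, read 9.94, 9.85 and 9.38 against 8.24, 8.39 and 7.82 (1.57, SE 0.20, adjusted p = 2.38e-05). Both were separate between the groups. Against 1.05% of all genes, 1 of 26 genes of ribosome biogenesis and Myc rose (3.85%, Mycn), 2 of 25 immediate early and stress genes (8.0%, Egr1 and Ddit3, of which neither was called in the 6-array or the weighted fit) and 1 of 20 of stroma and endothelium (5.0%, Tek). Of 23 interferon response genes 1 rose (4.35%, against 1.05%) and 1 fell (4.35%, against 2.06%). Of 18 sterol synthesis genes 0 were called, against 3.11% of all genes.

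The reporter-positive PreGM cells (PreGM GFP+, 3 arrays) share the CD150-negative gate of PreGM GFP- and have the reporter. Set against PreMegE they differed in 13 genes (0.0652%), 3 higher (0.015%) and 10 lower (0.0502%) in PreMegE; the comparison shares the PreMegE arrays with the one above, so the values are given side by side. Car1 differed by 5.90 from PreGM GFP- and by 0.36 from PreGM GFP+, Gata1 by 1.74 and -0.01, Dntt by -4.71 and -0.10, and Ms4a6c by -5.58 and -0.40. Slamf1, which the CD150 gate selects, differed by 2.30 and 1.32 (adjusted p = 0.0442 against PreGM GFP+), F2r by 2.65 and 0.90 (adjusted p = 0.0234), Mpo by -3.55 and -1.91 (adjusted p = 0.000993) and Atp8b4 by -3.97 and -1.97 (adjusted p = 0.00839). Beside Slamf1 and F2r, the remaining gene called higher in PreMegE was the late neutrophil gene Chil3. It differed by 1.80 and 2.52 (adjusted p = 0.0442 against PreGM GFP+). The mast cell and basophil genes Ms4a2 (0.49 and -3.23), Fcer1a (1.31 and -2.14) and Hdc (-0.63 and -1.75) were called against PreGM GFP+ (adjusted p = 1.91e-06, 0.0442 and 1.17e-05) and not against PreGM GFP- (0.46, 0.0852 and 0.0508). Whether the comparisons differ in a gene is the contrast of PreGM GFP- with PreGM GFP+ and was not tested here.

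The other sorted populations give the called genes values that did not enter the differences, and no test was made. Their arrays did enter the estimate of spread and the choice of probe set, and so had a part in which genes were called. Over the 209 genes called higher, GMP GFP+ minus GMP GFP- (granulocyte-macrophage progenitors with and without the reporter) had a median of 0.55 and was positive for 193 genes (92.3%, against 62.5% of all genes). Over the 411 called lower the median was -0.58 and 57 were positive (13.9%). Between stem cells without the reporter (HSC GFP-) and LMPP, 163 of the 209 were higher in stem cells (78.0%, against 59.4% of all genes) and 72 of the 411 (17.5%). CLP minus LMPP was positive for 84 of the 209 (40.2%) and 239 of the 411 (58.2%), against 59.6% of all genes. The erythroid list deviated by 0.72 (SD 0.10) in PreMegE, 0.78 (SD 0.09) in PreGM GFP+, 0.29 (SD 0.08) in GMP GFP+ and -0.16 (SD 0.04) in HSC GFP-. The megakaryocyte list ordered the groups otherwise, with 0.36 (SD 0.13) in PreMegE, 0.29 (SD 0.02) in HSC GFP- and 0.18 (SD 0.02) in PreGM GFP+; PreMegE and HSC GFP- did not differ beyond their spread. Late neutrophil genes deviated by 1.18 (SD 0.46) in PreMegE, -0.30 (SD 0.72) in PreGM GFP+ and 2.11 (SD 0.93) in GMP GFP-.

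**Figure D5:**
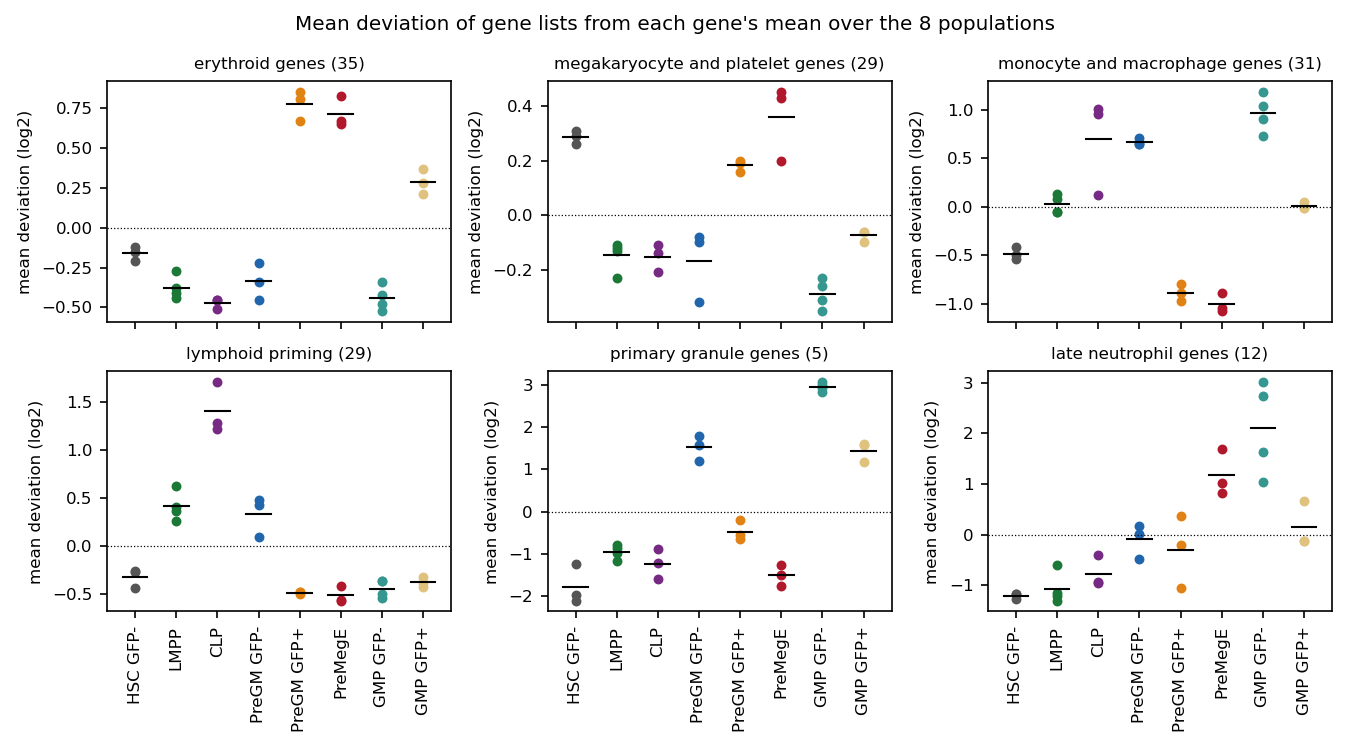
Points are arrays and bars group means of the mean log2 deviation of a list's genes from each gene's average over the 8 populations, for 6 lists (number of genes in brackets); vertical scales differ. PreMegE lies with PreGM GFP+ for erythroid (0.72 and 0.78) and lymphoid genes (-0.52 and -0.49), and for monocyte genes the means are 0.67 in PreGM GFP-, 0.70 in CLP and 0.96 in GMP GFP-, with all PreMegE arrays at -0.89 or lower.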

How the data were processed

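The deposited values are the authors' log2 signals. RMA and oligo are named, without versions or steps, in the submitters' processing notes, and base 2 was taken from the range of the values. RNA was labelled as biotinylated cRNA and hybridised to Mouse Gene 1.1 ST arrays, per the labels' protocols. RMA scales all arrays to 1 distribution and compresses low signals. Gene names came from the annotation of the 1.0 ST version. Probe sets naming several genes (1621) or none (12146) were left out of the gene test, and of 999 genes with several probe sets the brightest set by its mean was used. A linear model with 8 group coefficients was fitted to all 26 arrays in limma 3.58.1 (R 4.3.3), with 18 residual degrees of freedom, and PreMegE minus PreGM GFP- was tested with its moderated test and Benjamini-Hochberg adjustment. The script was tested on simulated data.

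The comparison, the members and the gene lists were chosen with earlier results of these data known. Named are the 15 largest rises and 15 largest falls among called genes whose arrays do not overlap (passing over model and clone names, small RNAs, antigen receptor segments and receptors of the olfactory and vomeronasal families), up to 6 called genes of each list, and any antigen, regulator or receptor gene. S100a8, S100a9, Ngp, Camp, Chil3, Ltf, Lcn2, Ly6g and the genes of the closing observations were chosen after their values were seen. Alternatives were fits of the 6 arrays alone, with the replicate number as a block, with array weights, with median-centred arrays, with an intensity trend, with low genes removed, with averaged or single probe sets, with Y-linked expression as a covariate and without each array. Numbers that replicates share across groups are not said to mark a shared animal or day, so the main fit had no block.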

Additional observations from a re-analysis of the deposited data

How the results depend on the processing

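The counts were 209 genes higher and 411 lower. They were 58 and 131 when only the 6 arrays were fitted, which leaves fewer arrays to estimate the spread, and 89 and 171 with arrays weighted by precision; the cause of the latter was not tested. Of 105 named calls 32 were not made in the 6-array fit and 22 not with weights. Leaving out 1 array gave 150 to 288 higher and 227 to 541 lower. With the replicate number as a block the counts were 207 and 401, and 4 named calls were lost (Prkch, H2-Ab1, Cdk1 and Csf2rb). Deviations of same-numbered arrays correlated at -0.23, -0.20 and 0.02. With 3 arrays a group, such values cannot settle whether the numbers pair the arrays. The counts were 208 and 382 with an intensity trend and robust prior, 185 and 466 over the 11013 genes above the median signal, 216 and 418 with probe sets averaged, 219 and 424 with every probe set tested by itself, 271 and 490 with Y-linked expression as a covariate, and 177 and 330 without PreMegE array 1 and PreGM GFP- array 2 together, an alternative chosen after seeing the data. In the alternatives that test genes, 0 of the 620 calls changed direction. Most of this was fixed in advance. The fits of the 6 arrays alone, with the block, with the trend or without low genes leave each difference as it was. Leaving out arrays cannot reverse a gene whose groups do not overlap, as in 207 of the 209 and 405 of the 411. Risen erythroid genes (16) numbered 10 in the 6-array fit, 10 with weights and 11 to 17 without single arrays. Fallen receptors (9) numbered 4 in the 6-array fit and 6 to 10 without single arrays. Of the 30 leading genes 26 to 30 were called, the 26 where low genes were removed. Il3ra, not called at 0.07, was -0.04 with median-centred arrays and -0.02 to 0.11 without single arrays, the lowest without PreGM GFP- array 1; the cause was not tested. With 3 arrays a group, differences near the median signal are the least certain.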

Other observations

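Some genes outside the lists, chosen after their values were seen, differed widely in pairs of relatives. Adgrl4, an adhesion receptor of stem cells and endothelium, read 7.19, 9.12 and 9.23 in PreMegE and 11.14, 10.65 and 11.01 in PreGM GFP- (-2.42, SE 0.36, limma adjusted p = 0.000188, and 0.0801 with the 6 arrays alone), and its relative Adgrl2 read 10.01, 10.67 and 10.72 against 8.73, 7.35 and 8.16 (2.39, SE 0.56, adjusted p = 0.0166). The groups did not overlap in either gene, and the Adgrl2 call was lost without PreMegE array 2 (0.0656) or 3 (0.0646) or PreGM GFP- array 2 (0.0703) and with weighted arrays (0.276). Of the sialyltransferases, St8sia4, which builds polysialic acid, fell from 9.74, 8.94 and 9.41 to 6.72, 6.97 and 6.69 (-2.57, SE 0.24, adjusted p = 1.87e-07), while St8sia6 rose from 5.50, 5.90 and 5.61 to 6.78, 8.27 and 6.57 (1.54, SE 0.28, adjusted p = 0.00212, and 0.17 with the 6 arrays alone).

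Further genes were chosen in the same way. Apoe, the lipoprotein component, read 11.27, 11.20 and 11.41 in PreMegE and 8.74, 9.15 and 9.30 in PreGM GFP-, a 4.69-fold rise (SE 0.18 on the log2 scale, adjusted p = 3.99e-08). Abcb4, a phospholipid translocator, rose by 2.34 (adjusted p = 5.36e-08). Aldh1a1, which makes retinoic acid, read 7.24, 9.23 and 9.59 against 6.72, 6.34 and 6.29 (2.23, SE 0.43, adjusted p = 0.00285, and 0.132 with the 6 arrays alone), with PreMegE array 1 the lowest of its group, as for Pf4. The PreGM GFP- means of St8sia6, Abcb4 and Aldh1a1 lay below the median signal. Egln3, an oxygen-sensing prolyl hydroxylase (-3.03, adjusted p = 4.72e-06), Anxa3, an annexin of neutrophils (-3.26, adjusted p = 6.05e-07), and the GATA-type repressor gene Trps1 (-3.38, adjusted p = 2.37e-05) fell, all to PreMegE means below the median signal. Xist was 0.74 higher in PreMegE and not called (adjusted p = 0.0537).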
